A study of Mus musculus with 9 samples.

Results

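A set of 7 genes of cholesterol synthesis and its feedback control was followed in the cortex of single mouse embryos at E12.5 (E, embryonic day). They were chosen by name from a longer list of sterol genes, whose other entries are not analysed here, and were matched by symbol to Ensembl identifiers among the 57010 genes of the count table. Single cortices, 1 library each, were sequenced from 3 embryos of each of 3 genotypes, control (Ctrl), cKO of Cnot3 and dcKO of Cnot3 and Trp53, to ask which transcripts depend on CNOT3, a subunit of the CCR4-NOT complex that shortens mRNA poly(A) tails. In cKO embryos Emx1-Cre, a recombinase active in radial glial cells (RGCs) of the dorsal telencephalon and in their progeny, removes floxed Cnot3, and in dcKO embryos it removes floxed Cnot3 and floxed Trp53, the gene for p53. The labels give Ctrl embryos as WT and say nothing more of their Cre or floxed alleles. Cells outside the Emx1 lineage, such as blood, vessels and meninges, keep both genes in the mutants.

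Cholesterol is built from acetyl-CoA. HMGCS1, encoded by Hmgcs1, joins acetyl units to HMG-CoA, from which mevalonate is made. IDI1, encoded by Idi1, interconverts the isoprene units that are assembled into farnesyl diphosphate. FDFT1 (squalene synthase) condenses farnesyl diphosphate to squalene, the first step committed to sterols, and SQLE (squalene epoxidase) oxidizes squalene before it is cyclized. SC5D and DHCR7 act near the end of the pathway, SC5D placing a double bond in the sterol ring and DHCR7 reducing 7-dehydrocholesterol to cholesterol. INSIG1 holds SCAP and the SREBP transcription factors in the endoplasmic reticulum when sterols are plentiful, and its own gene is a target of SREBP. The fetal brain makes most of its cholesterol itself once its barriers close, and loss of DHCR7 activity in humans causes a malformation syndrome that affects the brain.

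SREBP binds a short sterol regulatory element (SRE), often beside boxes for the factors NF-Y and Sp1. RefSeq promoter windows, 250 bases before to 50 bases after a start site on GRCm38.p6, were matched for 5 of the 7 genes, with 3 windows for Dhcr7. The stretches below are shown because each holds an NF-Y box or the SRE core, though not every match in its window. Positions count from the start site, and capitals mark the SRE core TCACNCCAC and the NF-Y box CCAAT, or ATTGG on the other strand.
Hmgcs1, chr13:119690151-119690250, plus strand, 100 bases from -200: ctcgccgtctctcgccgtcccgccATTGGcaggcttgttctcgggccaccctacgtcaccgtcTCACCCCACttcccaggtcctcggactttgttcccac
Idi1, chr13:8885506-8885605, plus strand, 100 bases from -100: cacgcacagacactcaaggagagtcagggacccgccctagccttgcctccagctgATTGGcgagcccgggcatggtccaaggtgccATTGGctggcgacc
Insig1, chr5:28071172-28071271, plus strand, 100 bases from -240: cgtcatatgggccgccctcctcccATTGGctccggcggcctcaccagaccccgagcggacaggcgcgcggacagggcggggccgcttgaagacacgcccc
Sc5d, chr9:42264301-42264400, minus strand, 100 bases from -100: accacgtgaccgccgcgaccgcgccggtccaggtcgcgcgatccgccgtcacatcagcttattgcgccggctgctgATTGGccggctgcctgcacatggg
Dhcr7, the last of its 3 windows, chr7:143830114-143830213, plus strand, 100 bases from -100: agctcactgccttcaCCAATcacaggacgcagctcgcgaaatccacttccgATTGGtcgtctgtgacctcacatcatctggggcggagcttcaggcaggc

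The SRE core was matched in 1 of the 5 genes, Hmgcs1, at -137 to -129, and 1.24% of 32851 RefSeq windows of the same length hold it. Beside it lies an NF-Y box at -176, and Hmgcs1 has further boxes at -237, -45 and 10. Idi1 has a pair of NF-Y boxes, at -45 and -14. Insig1 has 1 at -216, Sc5d has 1 at -24, and Dhcr7 has a pair in the last of its windows, at -85 and -49. An NF-Y box was thus present in all 5 genes with a window, but the 5 letters stand in 37.4% of all windows. The Sp1 box GGGCGG, searched on both strands, was also present in all 5 and stands in 35.7% of all windows. No 2 of these motifs overlapped in the stretches shown. A match of letters is a description of the window and not evidence of binding.

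Totals ranged from 21193798 to 45073349 counted reads per embryo, and each of the 7 genes had between 1119 and 24692 reads in every embryo. Cnot3 normalized counts were 3291, 3000 and 2756 in Ctrl, 420, 484 and 408 in cKO, and 206, 1353 and 534 in dcKO. Trp53 was at 6651, 7123 and 6029 in Ctrl, 4676, 4611 and 4693 in cKO, and 423, 3098 and 579 in dcKO. dcKO replicate 2 therefore kept more of both targeted transcripts than the other dcKO embryos. It also stood apart in 6 subpallial markers, absent or nearly so elsewhere, whose summed normalized count was 224 against 0 to 13.7 in the other 8 embryos. The 5 dorsal telencephalic markers summed to 27150 to 43324 in Ctrl, 20532 to 22150 in cKO and 26084 to 34179 in dcKO, so the labelled tissue was present in every library. Summed blood markers were 181603 to 258624 in Ctrl, 224873 to 342190 in cKO and 120320 to 164604 in dcKO, 5 endothelial markers 5409 to 7002, 4977 to 6875 and 3176 to 3517, 5 meningeal markers 18290 to 20214, 10903 to 15979 and 7968 to 12118, and 4 markers of the cortical hem and choroid plexus 90.0 to 437, 876 to 3186 and 684 to 3356. 4 markers of microglia and macrophages summed to 659 to 839, 700 to 1475 and 289 to 563. Markers of radial glia summed to 72386 to 83124, 71574 to 86403 and 74334 to 82526, those of newborn neurons to 38607 to 49583, 29208 to 40973 and 24851 to 48948, and those of intermediate progenitors to 18611 in dcKO replicate 2 against 9313 to 13610 in the other 8 embryos. These sums hide single markers. In cKO 4 of 6 radial glia markers had a log2 fold change below 0 and 2 above. Their median was -0.43, beside 0.01 over all tested genes. Nes was at 21142, 17954 and 15950 in cKO against 28900, 28979 and 30461 in Ctrl. Vim went the other way, at 49615, 56969 and 46549 against 41981, 37385 and 32526. Of 6 newborn neuron markers, 3 were above 0 and 3 below in cKO (median -0.06). The part of these shifts in the sterol results was not tested.

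Libraries also differed in how counts depended on the GC content of transcripts. Taking the median log2 ratio to the Ctrl mean, the decile of genes with the highest GC content minus the decile with the lowest was -0.41 to 0.27 in Ctrl embryos and -1.03 to -0.59 in cKO embryos. It was -2.14 and -2.53 in dcKO replicates 1 and 2 but 0.34 in dcKO replicate 3. The longest transcripts of the 7 genes hold 41.9% (Idi1), 42.9% (Sc5d), 43.1% (Hmgcs1), 48.2% (Insig1), 48.6% (Sqle), 51.8% (Fdft1) and 52.8% (Dhcr7) GC. Each comparison of the 7 genes is therefore also given from a fit with GC-corrected offsets, which removes the smooth trend of each embryo with GC content. That fit was added after the data were seen. The trend was lower in every cKO embryo and in dcKO replicates 1 and 2 than in any Ctrl embryo. A change with genotype that follows GC content would be removed along with a difference between libraries, and these cannot be told apart here.

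The 7 genes were well expressed in control cortex. Normalized counts are reads divided by the TMM-scaled library size and set to the mean library. Per kilobase of annotated exon they allow a rough comparison between genes. The length takes in every annotated exon of a gene, so it can exceed that of the transcripts expressed, by amounts that differ between genes. On that scale Ctrl levels were 2205 ± 190 per kb for Hmgcs1 (SD, n = 3) and 2036 ± 150 for Idi1, the early enzymes. Their ranges overlapped, so neither can be placed above the other. Fdft1 followed at 1275 ± 89.8 per kb, then Insig1 at 994 ± 86.0 and Sqle at 902 ± 10.7, which also overlapped each other. Dhcr7 was at 592 ± 27.3 per kb and Sc5d, the lowest, at 327 ± 6.96. On this scale these late enzymes were separated from each other and from the other 5 in every Ctrl embryo. How far the annotated lengths set this order was not tested.

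**Figure D1:**
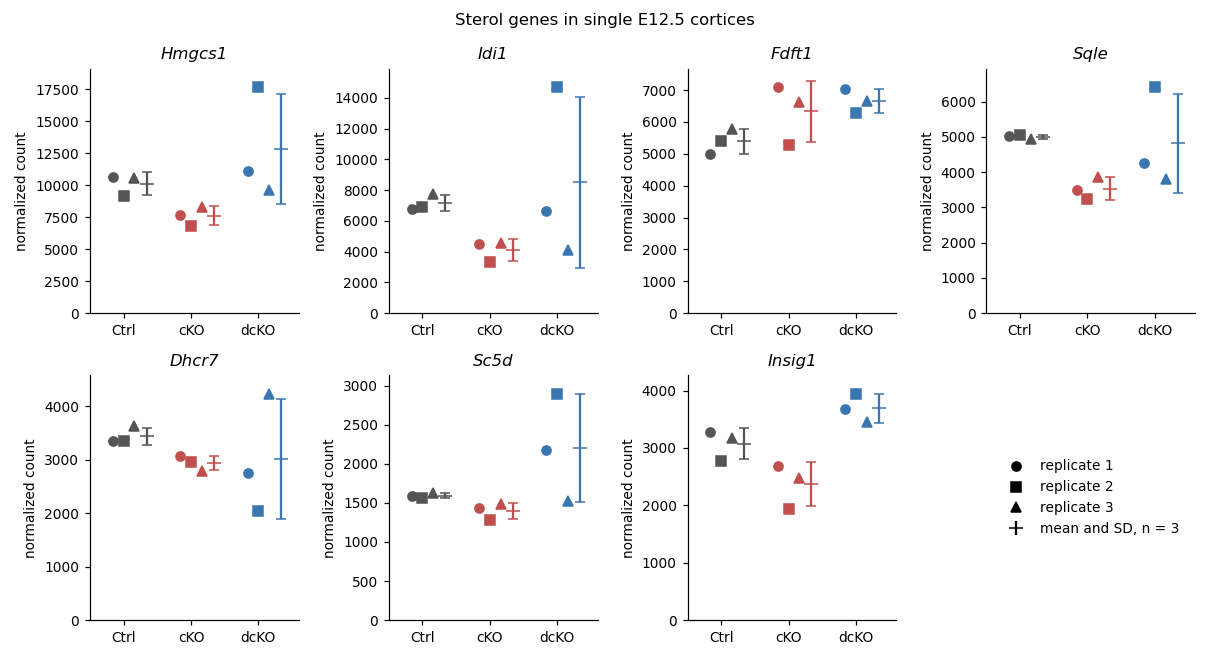
Normalized counts (vertical axis, reads set to the mean library, starting at 0) of the 7 genes in each Ctrl, cKO and dcKO embryo, with symbols for the replicate and bars for the mean and SD of n = 3 embryos. The cKO points of Hmgcs1, Idi1, Sqle, Dhcr7, Sc5d and Insig1 lie below every Ctrl point, and dcKO replicate 2 is the highest point for Hmgcs1, Idi1, Sqle, Sc5d and Insig1.

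Of the early enzymes, Hmgcs1 (chr13:119690379-119708260, plus strand) had normalized counts of 10669, 9123 and 10595 in Ctrl, 7687, 6848 and 8327 in cKO, and 11123, 17701 and 9633 in dcKO. The cKO embryos were all below the Ctrl embryos, and the dcKO embryos were all above the cKO embryos. Idi1 (chr13:8885501-8892451, plus strand) had 6746, 6932 and 7735 in Ctrl, 4488, 3316 and 4569 in cKO, and 6673, 14718 and 4117 in dcKO. It had the lowest cKO to Ctrl ratio of the 7, 0.578, and its dcKO embryos spread from within the cKO range to above every other embryo. Positions of these and the following genes are those of GENCODE M21 on GRCm38, whereas the reads had been aligned to mm39.

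Of the enzymes around squalene, Fdft1 (chr14:63145150-63179578, minus strand) had 5007, 5391 and 5766 normalized counts in Ctrl, 7106, 5267 and 6623 in cKO, and 7030, 6290 and 6669 in dcKO. It was the exception among the 7 in its cKO mean, which was above the Ctrl mean, and every dcKO embryo was above every Ctrl embryo. Sqle (chr15:59315077-59331192, plus strand), the next enzyme, had 5014, 5053 and 4937 in Ctrl, 3479, 3227 and 3868 in cKO, and 4246, 6421 and 3792 in dcKO. Its Ctrl embryos lay close together, the cKO embryos were all lower, and the dcKO embryos fell on both sides of Ctrl.

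Of the late enzymes, Dhcr7 (chr7:143823145-143848410, plus strand) had 3349, 3351 and 3625 normalized counts in Ctrl, 3069, 2950 and 2793 in cKO, and 2758, 2050 and 4237 in dcKO. Its dcKO replicate 2 was the lowest of the 9 embryos and replicate 3 the highest, whereas for Idi1 replicate 2 was the highest dcKO embryo and replicate 3 the lowest. Sc5d (chr9:42251595-42264256, minus strand) had 1588, 1557 and 1625 in Ctrl, 1432, 1277 and 1481 in cKO, and 2176, 2897 and 1518 in dcKO. The cKO embryos were again all below Ctrl, by a small margin, and a pair of dcKO embryos stood above both groups.

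Insig1 (chr5:28071363-28078662, plus strand), the feedback regulator, had 3283, 2775 and 3167 normalized counts in Ctrl, 2694, 1941 and 2469 in cKO, and 3671, 3947 and 3448 in dcKO. The 3 genotypes did not overlap, with cKO lowest and dcKO highest, and the dcKO embryos lay closer together than for Hmgcs1, Idi1, Sqle, Dhcr7 or Sc5d. In bulk tissue, fewer cells that express a gene and less RNA per cell cannot be told apart.

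In cKO against Ctrl cortices, 6 of 7 genes were lower and Fdft1 was higher, but none passed the call. The median log2 fold change of the 7 was -0.38, beside 0.01 over 13680 tested genes. By edgeR's quasi-likelihood test in a model of all 9 embryos, 0 of 7 met a Benjamini-Hochberg adjusted p-value under 0.05 with more than a 2-fold change, a call that 0.0146% of tested genes met. At an unadjusted p-value under 0.05, 2 of 7 were lower (11.7% of tested genes) and 0 of 7 higher (15.3%). These were Sqle, with a log2 fold change of -0.50 ± 0.20 (SE; edgeR adjusted p = 0.146), and Insig1, with -0.38 ± 0.17 (edgeR adjusted p = 0.181). The estimate for Idi1 was larger and less certain, -0.79 ± 0.38 (edgeR adjusted p = 0.209, 95% interval -1.64 to 0.053), and for Hmgcs1 it was -0.41 ± 0.23 (edgeR adjusted p = 0.273). Dhcr7 was at -0.23 ± 0.23, Sc5d at -0.19 ± 0.22 and Fdft1 at 0.23 ± 0.16, with edgeR adjusted p-values of 0.558, 0.621 and 0.381. The 3 cKO embryos lay below all 3 Ctrl embryos for 6 of 7 genes, which 28.0% of tested genes also did, and above them for 0 of 7, as for 29.2%. An exact permutation test of 3 embryos against 3 gave p = 0.1 for these 6 genes, the smallest it allows.

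The number of genes past the threshold changed with the fit and with the embryos in it. DESeq2 called 0 of 7 (8.82% of genes), and 3 of 7, Sqle, Idi1 and Insig1, were lower at an unadjusted DESeq2 p-value under 0.05, beside 13.8% of genes. In a fit of the 6 Ctrl and cKO embryos alone, edgeR's adjusted p-value was under 0.05 and the fold change negative for 5 of 7 genes, beside 23.7% of genes tested there. They were Idi1 (-0.79 ± 0.12, edgeR adjusted p = 0.000568), Sqle (-0.51 ± 0.09, 0.000951), Hmgcs1 (-0.41 ± 0.10, 0.00621), Insig1 (-0.38 ± 0.12, 0.0273) and Dhcr7 (-0.23 ± 0.08, 0.0363). limma voom with sample quality weights gave 4 of 7 lower (27.3% of genes) and 1 of 7, Fdft1, higher (27.6%) at an adjusted p-value under 0.05. Without dcKO replicate 2 edgeR gave 2 of 7 lower, Sqle (adjusted p = 0.0217) and Idi1 (0.029), beside 7.15% of genes, and without dcKO replicate 3 again 2 of 7, Sqle (0.0315) and Idi1 (0.036), beside 14.7%. With GC-corrected offsets 5 of 7 were lower at an edgeR adjusted p-value under 0.05, beside 5.82% of genes. Idi1 then passed the 2-fold call at -1.06 ± 0.25 (edgeR adjusted p = 0.0329), followed by Hmgcs1 at -0.68 ± 0.15 (0.0308), Sqle at -0.65 ± 0.18 (0.0441), Insig1 at -0.54 ± 0.14 (0.0383) and Sc5d at -0.46 ± 0.12 (0.0429). Dhcr7 was at -0.19 ± 0.13 and Fdft1 at 0.22 ± 0.15 in that fit, with edgeR adjusted p-values of 0.319 and 0.323.

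**Figure D2:**
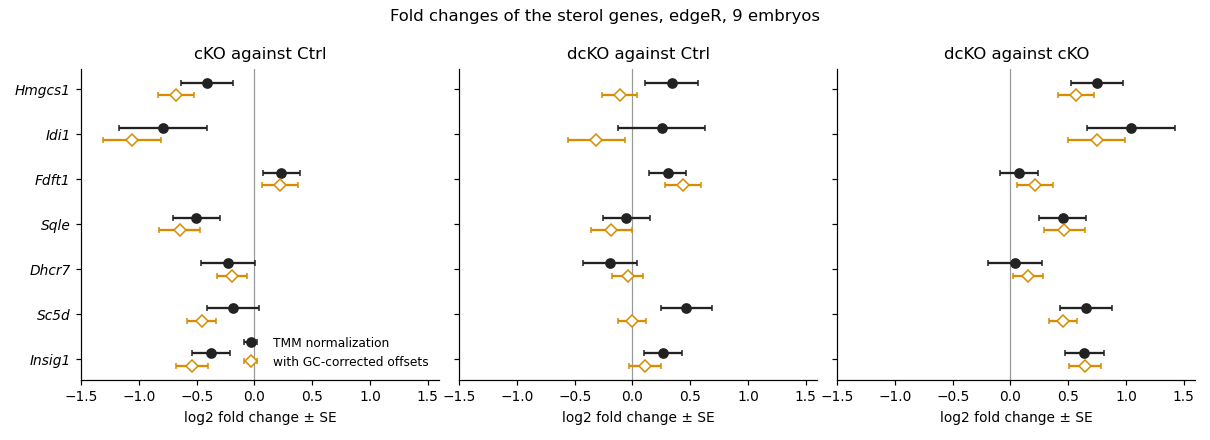
Log2 fold change ± SE (horizontal axis) of the 7 genes in the 3 comparisons, from edgeR in a model of 9 embryos with TMM normalization (filled circles) and with GC-corrected offsets (open diamonds). In cKO against Ctrl 6 of 7 genes lie below 0 with either, whereas in dcKO against Ctrl Hmgcs1, Idi1 and Sc5d lie above 0 with TMM and at -0.11, -0.32 and -0.00 with the correction.

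In dcKO against Ctrl cortices, 5 of 7 genes were higher and 2 lower, again without a call. The median log2 fold change was 0.26, beside 0.11 over all tested genes. edgeR and DESeq2 each called 0 of 7, while edgeR called 0% and DESeq2 8.46% of tested genes. At an unadjusted edgeR p-value under 0.05, 0 of 7 were higher (18.0% of genes) and 0 of 7 lower (11.2%). Sc5d had the largest estimate, 0.47 ± 0.22 (edgeR adjusted p = 0.192), followed by Hmgcs1 at 0.34 ± 0.23 (0.339), Fdft1 at 0.31 ± 0.16 (0.231), Insig1 at 0.26 ± 0.17 (0.314) and Idi1 at 0.25 ± 0.38 (0.674). Sqle was at -0.05 ± 0.20 and Dhcr7 at -0.19 ± 0.23, with edgeR adjusted p-values of 0.877 and 0.603. All dcKO embryos lay above all Ctrl embryos for 2 of 7 genes, Fdft1 and Insig1, beside 15.6% of genes, and below them for 0 of 7, beside 11.2%.

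Both mutants were compared with the same 3 Ctrl embryos. The dcKO values moved when single embryos were left out. Leaving out dcKO replicate 2 took Idi1 from 0.25 to -0.41 and Hmgcs1 from 0.34 to 0.03. Leaving out dcKO replicate 3 left a pair of dcKO embryos in which 2 of 7 genes were higher at an edgeR adjusted p-value under 0.05, Sc5d at 0.67 ± 0.15 (adjusted p = 0.00456) and Hmgcs1 at 0.51 ± 0.19 (0.0457), beside 25.3% of genes, and 1 of 7 was lower, Dhcr7 at -0.52 ± 0.15 (0.0143), beside 23.6%. limma voom, which weights embryos by their quality, gave 1 of 7, Sc5d, higher (adjusted p = 0.013), beside 26.5% of genes. With GC-corrected offsets Hmgcs1 was at -0.11 ± 0.15, Idi1 at -0.32 ± 0.25 and Sc5d at -0.00 ± 0.12, and the largest estimate became Fdft1 at 0.44 ± 0.15, whose edgeR adjusted p-value was 0.113.

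**Figure D3:**
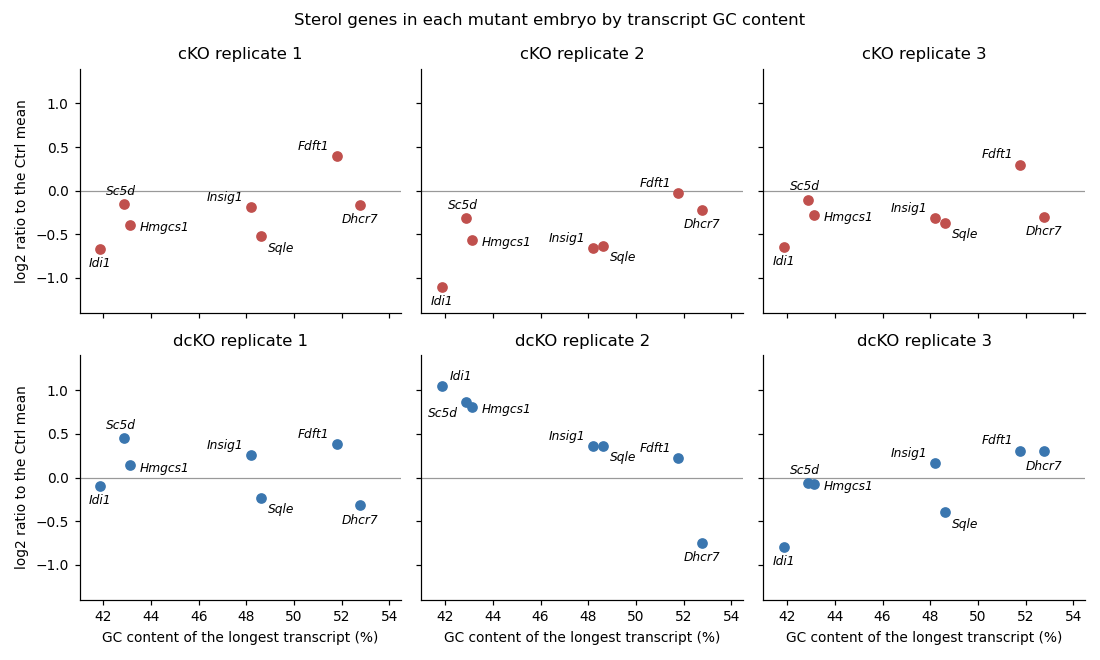
Log2 ratio to the Ctrl mean (vertical axis) of the 7 genes in each of the 6 mutant embryos, by the GC content of the longest transcript (horizontal axis, %), with TMM normalization. In dcKO replicate 2 the genes descend from Idi1 (41.9% GC, 1.05) to Dhcr7 (52.8% GC, -0.75), and in dcKO replicate 3 Idi1 is lowest at -0.79 and Fdft1 and Dhcr7 are at 0.31 and 0.30.

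The 7 genes were spread differently in each dcKO embryo. In dcKO replicate 2 the log2 ratios to the Ctrl mean were 1.05 for Idi1, 0.87 for Sc5d and 0.81 for Hmgcs1, the genes with the least GC, and -0.75 for Dhcr7, with the most. In dcKO replicate 3, whose GC trend ran the other way, they were -0.79 for Idi1, -0.40 for Sqle, -0.07 for both Sc5d and Hmgcs1, 0.30 for Dhcr7 and 0.31 for Fdft1. In dcKO replicate 1 no order by GC content was seen, with Sc5d at 0.45, Fdft1 at 0.39 and Dhcr7 at -0.32. After the GC correction Idi1 was at -0.70, 0.27 and -0.77 in the 3 dcKO embryos and at -0.95, -1.32 and -0.94 in the 3 cKO embryos. Insig1 was at 0.04, 0.18 and 0.12 in dcKO against -0.37, -0.79 and -0.48 in cKO. Sc5d, which ranged from -0.07 to 0.87 in dcKO before the correction, ranged from -0.12 to 0.17 after it. The median of the 7 genes in each embryo was then -0.44, -0.75 and -0.48 in cKO and -0.12, 0.18 and -0.07 in dcKO, beside -0.03 to 0.03 in Ctrl.

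In dcKO against cKO cortices, all 7 estimates were above 0, with a median of 0.64 beside 0.07 over all tested genes. At an unadjusted edgeR p-value under 0.05, 5 of 7 genes were higher, beside 2.05% of tested genes, and 0 of 7 lower, beside 2.38%, while DESeq2 gave 4 of 7 higher, beside 2.6%. Adjusted over all genes, none passed. The call of an adjusted p-value under 0.05 with more than a 2-fold change was met by 0 of 7 in edgeR (0.0146% of genes) and by 0 of 7 in DESeq2 (0.38%). Insig1 was at 0.64 ± 0.17 (edgeR adjusted p = 0.762), Hmgcs1 at 0.75 ± 0.23 (edgeR adjusted p = 0.889), Sc5d at 0.65 ± 0.22 (edgeR adjusted p = 0.889), Idi1 at 1.04 ± 0.38 (edgeR adjusted p = 0.889) and Sqle at 0.45 ± 0.20 (edgeR adjusted p = 0.889). Fdft1 was at 0.07 ± 0.16 and Dhcr7 at 0.04 ± 0.23. Every dcKO embryo lay above every cKO embryo for 3 of 7 genes, Hmgcs1, Insig1 and Sc5d, beside 2.62% of tested genes, and below for 0 of 7, beside 3.63%.

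The lower cKO levels and these differences share the cKO embryos, so the comparisons are not independent. Without dcKO replicate 3, edgeR's adjusted p-value was under 0.05 and the fold change positive for 5 of 7 genes, beside 13.3% of genes. They were Idi1 (1.37 ± 0.27, edgeR adjusted p = 0.0141), Hmgcs1 (0.92 ± 0.19, 0.0145), Sc5d (0.86 ± 0.15, 0.014), Insig1 (0.69 ± 0.15, 0.0167) and Sqle (0.60 ± 0.17, 0.0292). Without dcKO replicate 2 the estimates of these 5 genes were smaller, with Idi1 at 0.39 ± 0.22, Hmgcs1 at 0.45 ± 0.15 and Insig1 at 0.59 ± 0.16. Insig1's edgeR adjusted p-value was 0.774. Those of Dhcr7 (0.25) and Fdft1 (0.11) were larger than with all embryos. With GC-corrected offsets all 7 were above 0, from 0.15 ± 0.13 for Dhcr7 to 0.75 ± 0.25 for Idi1, and the lowest edgeR adjusted p-value was 0.247, for Insig1 at 0.65 ± 0.14.

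The labels give each embryo a code, and some embryos of different genotypes share its number, though what the number stands for is not stated. In cKO replicate 2 against Ctrl replicate 1, which share a number, the median log2 ratio of the 7 genes was -0.64, and -0.79 with the GC correction. In cKO replicate 3 against Ctrl replicate 2 it was -0.17, with Idi1 at -0.60 and Hmgcs1 at -0.13, and with the correction these were -0.40, -0.94 and -0.46. In dcKO replicate 3 against Ctrl replicate 3 it was -0.10, with Idi1 at -0.91 and Dhcr7 at 0.22, and with the correction -0.043, -0.83 and 0.017. Each pair is 1 embryo against 1, so these are values without a test.

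The 7 genes did not vary as a single unit across embryos. Over the 9 embryos, which share the GC trends and genotype means given above, the depth-scaled log2 counts (log2 CPM) of Idi1 and Sqle had a Pearson correlation of 0.96, Hmgcs1 and Sc5d of 0.94, and Hmgcs1 and Idi1 of 0.93. Dhcr7 ran against Sc5d at -0.67 and against Idi1 at -0.53, and Fdft1 was near 0 with Hmgcs1 (0.09) and Idi1 (-0.06). Of the 21 pairs, 13 were above 0, with a median of 0.30. After the GC correction 17 of 21 were above 0 with a median of 0.46, Idi1 and Sqle were at 0.98 and Hmgcs1 and Sc5d at 0.96, Dhcr7 and Sc5d at 0.29, and Fdft1 and Hmgcs1 at -0.11. With the genotype means removed 14 of 21 pairs were above 0 before the correction (median 0.46) and 15 after it (median 0.45), and the pairs among Hmgcs1, Idi1, Sqle and Sc5d ran from 0.92 to 0.98 before it and from 0.70 to 0.96 after it. The corrected values of Dhcr7 were then -0.87 with Sqle, -0.73 with both Idi1 and Sc5d, -0.38 with Hmgcs1, -0.18 with Fdft1 and -0.03 with Insig1. Without the correction they were -0.88, -0.91 and -0.96, then -0.84, 0.19 and -0.29. For Hmgcs1, Idi1, Sqle, Sc5d and Dhcr7 the values with genotype means removed rest largely on the spread among the 3 dcKO embryos. Before the correction Idi1, for example, was at -0.09, 1.05 and -0.79 in dcKO as log2 ratios to the Ctrl mean, beside -0.08 to 0.12 in Ctrl.

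Among 6136 other tested genes with a mean log2 CPM above 5, the 5 with the highest Pearson correlation to the mean z-score of the 7 genes over the 9 embryos were Ypel1 (0.95), Rps13 (0.93), Syce2 (0.93), E130114P18Rik (0.93) and Cyp51 (0.93). Cyp51, the lanosterol demethylase of the same pathway, had 6646, 6059 and 6894 normalized counts in Ctrl, 4505, 3616 and 4676 in cKO, and 6594, 11761 and 4943 in dcKO. Its dcKO replicate 2 was the highest of the 9 embryos and its cKO embryos were all below Ctrl, as for Hmgcs1 and Idi1. The same held for Ypel1, Rps13, Syce2 and E130114P18Rik. All were picked by their likeness to the 7 genes in these embryos, so a shared pattern follows from the choice.

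The rest of the pathway was read from lists of named genes. All 5 other mevalonate enzymes (Acat2, Mvk, Pmvk, Mvd and Fdps) had cKO estimates below 0, with a median of -0.46. In dcKO 4 of 5 were below 0 and 1 above, with a median of -0.36, and the same held with GC-corrected offsets. edgeR called 0 of 5 in cKO, beside 0.0146% of tested genes, and DESeq2 0 of 5, beside 8.82%. With GC-corrected offsets 1 of 5, Fdps at -0.53 ± 0.14 (edgeR adjusted p = 0.04), was lower in cKO at an adjusted p-value under 0.05, beside 5.82% of genes. Fdps, farnesyl diphosphate synthase, was at -0.46 ± 0.18 (edgeR adjusted p = 0.143) in cKO and -0.36 ± 0.18 (0.214) in dcKO. Mvd, which decarboxylates mevalonate diphosphate, had the lowest estimate in both mutants, -1.05 ± 0.69 and -0.87 ± 0.69, and Pmvk in cKO (-0.12 ± 0.40) and Acat2 in dcKO (0.04 ± 0.16) the highest. Mvd has a high GC content, and its estimates were -0.52 and -0.55 with the correction, while Pmvk in cKO turned to 0.20 and 4 of 5 enzymes stayed below 0 there. Between dcKO and cKO the list ran from Pmvk at -0.05 ± 0.40 to Mvk at 0.40 ± 0.64, with a median of 0.18.

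Of 8 other enzymes after squalene, 6 were below 0 in cKO (median -0.36), 2 in dcKO (median 0.13) and 0 between dcKO and cKO (median 0.31). With GC-corrected offsets 6 were below 0 in cKO (median -0.55), 4 in dcKO (median 0.0065) and 0 between dcKO and cKO (median 0.26). In cKO, dcKO and between them edgeR called 0 of 8, beside 0.0146%, 0% and 0.0146% of tested genes, and DESeq2 0 of 8, beside 8.82%, 8.46% and 0.38%. With the correction 2 of 8 were lower in cKO at an edgeR adjusted p-value under 0.05, beside 5.82% of genes. They were Cyp51 at -0.83 ± 0.22 (edgeR adjusted p = 0.0408) and Lbr, a sterol reductase of the nuclear membrane, at -0.79 ± 0.17 (0.0308). At an edgeR adjusted p-value under 0.1, 0 of 8 were lower in cKO, beside 5.53% of tested genes, and 0 of 8 in dcKO, beside 5.88%. At an unadjusted edgeR p-value under 0.05, 2 of 8 were lower in cKO, beside 11.7% of tested genes, and 2 of 8 higher in dcKO against cKO, beside 2.05%. The lowest estimates were for Hsd17b7, a reductase of sterol demethylation, in cKO (-0.76 ± 0.39), for Lss, which cyclizes oxidized squalene to lanosterol, in dcKO (-0.22 ± 0.18, edgeR adjusted p = 0.441), and for Ebp between dcKO and cKO (0.03 ± 0.27). The highest were for Nsdhl in cKO (0.30 ± 0.20), Msmo1 in dcKO (0.55 ± 0.25) and Cyp51 between dcKO and cKO (0.86 ± 0.28, edgeR adjusted p = 0.889). With the correction Hsd17b7 was at -1.02, Lss at -0.33, Nsdhl at 0.072, Msmo1 at 0.16 and Cyp51 at 0.78 in the same comparisons.

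Of the 7 SREBP pathway regulators found by symbol, 5 were below 0 in each mutant, with medians of -0.68 in cKO and -0.47 in dcKO. With GC-corrected offsets 6 were below 0 in cKO (median -0.49) and 5 in dcKO (median -0.17). DESeq2 called 2 of 7 lower in each mutant, Srebf2 and Scap, which encodes the SREBP escort protein, beside 8.82% of tested genes called in either direction in cKO and 8.46% in dcKO. Scap had 2396, 2005 and 1449 normalized counts in Ctrl, 964, 965 and 871 in cKO, and 534, 639 and 1650 in dcKO, where replicate 3 lay within the Ctrl range. It was at -1.06 ± 0.39 in cKO and -1.05 ± 0.39 in dcKO (edgeR adjusted p = 0.119 and 0.111, DESeq2 0.0467 and 0.0423) and with the correction at -0.50 ± 0.14 and -0.36 ± 0.14 (edgeR adjusted p = 0.0474 and 0.139). With the correction 3 of 7 regulators, Srebf2, Scap and Mbtps1, were lower in cKO at an edgeR adjusted p-value under 0.05, beside 5.82% of genes, and 1 of 7, Mbtps1, in dcKO, beside 0.966%. Srebf2, which encodes the SREBP form that drives sterol synthesis genes, had 11425, 9074 and 7056 normalized counts in Ctrl, 3470, 3654 and 3254 in cKO, and 2150, 3640 and 6945 in dcKO. Every mutant embryo was below every Ctrl embryo, although dcKO replicate 3 came close to the lowest Ctrl embryo. Srebf2 was at -1.41 ± 0.36 in cKO (edgeR adjusted p = 0.0578, DESeq2 0.004) and -1.11 ± 0.36 in dcKO (edgeR adjusted p = 0.0846, DESeq2 0.0219), and with GC-corrected offsets at -0.97 ± 0.20 (edgeR adjusted p = 0.0302) and -0.49 ± 0.20 (0.147). Mbtps1, which encodes the site-1 protease that cleaves SREBP, was at -0.68 ± 0.15 in cKO and -0.65 ± 0.14 in dcKO, with edgeR adjusted p-values of 0.0509 and 0.0503, and it moved little with the correction, to -0.76 ± 0.11 (edgeR adjusted p = 0.0235) and -0.66 ± 0.11 (0.0454). These were the 2 of 7 regulators lower at an edgeR adjusted p-value under 0.1 in each mutant, beside 5.53% of tested genes in cKO and 5.88% in dcKO. Insig2, the relative of Insig1, was highest in cKO at 0.48 ± 0.23 and Mbtps2, the site-2 protease gene, in dcKO at 0.66 ± 0.33, and with the correction these were 0.25 and 0.054. Between dcKO and cKO the list ran from Gramd1a at -0.16 ± 0.44 to Srebf1 at 0.52 ± 0.69, and Srebf2 was at 0.29 ± 0.36.

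The 9 genes of lipoprotein receptors and lysosomal sterol export split by gene rather than moving as a list. In both mutants 3 of 9 were higher at an edgeR adjusted p-value under 0.1, which 8.64% of tested genes were in cKO and 10.9% in dcKO. They were Vldlr, a receptor for apolipoprotein E and reelin, Lrp2 (megalin), an endocytic receptor of the neural tube and choroid plexus, and Lipa, the lysosomal acid lipase that frees cholesterol from esters. Vldlr had 265, 274 and 279 normalized counts in Ctrl, 689, 862 and 836 in cKO, and 1241, 821 and 491 in dcKO. Lrp2 had 35, 47 and 66 in Ctrl, 88, 229 and 192 in cKO, and 248, 224 and 150 in dcKO, while markers of the hem and choroid plexus were also higher in the mutants, a link that was not tested. Lipa had 431, 436 and 540 in Ctrl, 1237, 1331 and 1196 in cKO, and 1735, 685 and 1138 in dcKO. In none of these 3 genes did a mutant embryo fall within the Ctrl range. Their log2 fold changes in cKO and dcKO were 1.54 ± 0.31 and 1.64 ± 0.31 for Vldlr, 1.77 ± 0.43 and 2.06 ± 0.44 for Lrp2, and 1.42 ± 0.30 and 1.34 ± 0.30 for Lipa, with edgeR adjusted p-values from 0.0502 to 0.0542 and DESeq2 adjusted p-values from 0.000169 to 0.00248. With GC-corrected offsets they were 1.29 ± 0.23 and 1.19 ± 0.23 for Vldlr (edgeR adjusted p = 0.0286 and 0.0454), 1.65 ± 0.41 and 1.96 ± 0.41 for Lrp2 (0.0364 and 0.0454), and 1.16 ± 0.32 and 0.94 ± 0.32 for Lipa (0.0462 and 0.103). Lrp1, a broad endocytic receptor, was lowest in both mutants, -1.06 ± 0.48 and -1.22 ± 0.48, with edgeR adjusted p-values of 0.188 and 0.131 and DESeq2 adjusted p-values of 0.106 and 0.0498, so that DESeq2 called it in dcKO, beside 8.46% of tested genes. With the correction it was at -0.66 and -0.78, and the median of the list, -0.31 in cKO and 0.24 in dcKO, was -0.35 and -0.18. Between dcKO and cKO the list ran from Npc1 at -0.27 ± 0.28 to Stard4 at 0.63 ± 0.22, with 0 of 9 called by edgeR (0.0146% of tested genes) or by DESeq2 (0.38%).

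Of 7 tested genes of sterol efflux, storage and LXR, the sterol-sensing nuclear receptor, edgeR called 0 in cKO, beside 0.0146% of tested genes, and 0 in dcKO, beside 0%. The medians were -0.28 in cKO and -0.14 in dcKO but 0.11 and 0.051 with GC-corrected offsets. Soat1, which esterifies cholesterol for storage, was highest in dcKO at 0.66 ± 0.20 (edgeR adjusted p = 0.0704, DESeq2 0.0283) and at 0.27 with the correction (edgeR adjusted p = 0.274). Abca1, a cholesterol exporter induced by LXR, was highest in cKO at 0.74 ± 0.29 (edgeR adjusted p = 0.137) and lowest between dcKO and cKO at -0.60 ± 0.29, and at 0.57 and -0.61 with the correction. Nr1h2, an LXR gene, was lowest in both mutants, -1.33 ± 0.69 and -0.90 ± 0.69, and highest between dcKO and cKO at 0.43 ± 0.69, and with the correction at -0.62, -0.40 and 0.22. Of the 9 genes of the non-sterol isoprenoid branches, Fnta, a subunit of the protein prenyltransferases, was highest in both mutants, 0.70 ± 0.21 and 0.79 ± 0.21 (edgeR adjusted p = 0.0784 and 0.0597), and Icmt, which methylates prenylated proteins, was lowest, -0.94 ± 0.24 and -1.02 ± 0.24 (edgeR adjusted p = 0.0575 and 0.0511). DESeq2 adjusted p-values were 0.0368 and 0.0194 for Fnta and 0.00287 and 0.00106 for Icmt, and with more than a 2-fold change DESeq2 called 1 of 9, Icmt, lower in dcKO, beside 8.46% of tested genes called in either direction. With the correction Fnta was at 0.55 and 0.64 and Icmt at -0.85 and -0.70 (edgeR adjusted p = 0.0457 and 0.0981), and the median of the list, -0.15 in cKO and 0.25 in dcKO, was -0.17 and -0.14. Between dcKO and cKO this list ran from Fntb at -0.14 ± 0.30 to Ggps1 at 0.60 ± 0.35, which was at 0.23 with the correction.

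**Figure D4:**
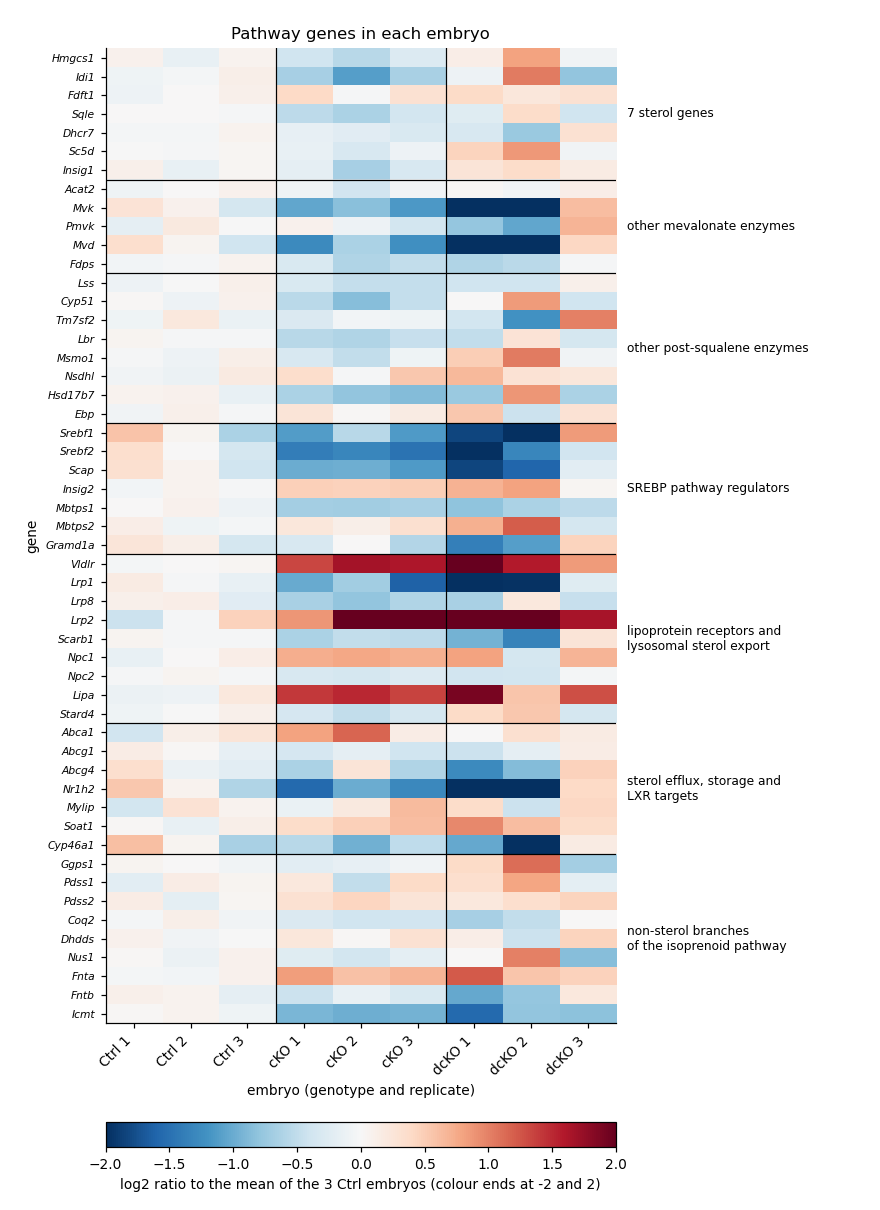
Log2 ratio to the mean of the 3 Ctrl embryos (colour, from blue at -2 to red at 2) for the 7 sterol genes and the tested genes of the 6 lists (rows) in each embryo (columns). Srebf2, Vldlr, Lrp2 and Lipa keep their direction in all 6 mutant embryos, and Idi1 and Hmgcs1 are below Ctrl in all 3 cKO embryos and at 1.05 and 0.81 in dcKO replicate 2.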

How the data were processed

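The authors prepared stranded poly(A) libraries from single E12.5 cortices, sequenced them as paired-end reads, trimmed adapters with Cutadapt, aligned to mm39 with STAR and counted with featureCounts. The deposited values are raw counts per gene, with no filter or normalization. Strand settings are not given in the sources used here. Embryos were grouped by their titles.

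Log2 fold changes, standard errors and p-values came from edgeR 4.0.16 (TMM, quasi-likelihood test, Benjamini-Hochberg over all tested genes) in R 4.3.3, fitted to 9 embryos over the 13680 genes whose reads exceeded 10 in each embryo. All 7 members passed that filter. Calls required an adjusted p-value under 0.05 and more than a 2-fold change. Alternatives were DESeq2 1.42.0, limma 3.58.1 voom with quality weights, RLE factors, no filter, 6 embryos, each embryo left out, the replicate number as a block and, added after the data were seen, GC-corrected offsets on 13561 genes. The exact permutation test used log2 CPM with a prior count of 0.5. The edgeR procedure was tested on simulated data. Named are the 7 members, Cnot3 and Trp53, the highest and lowest estimate of each list in each comparison, and the 5 genes most like the members. Fdps, Mbtps1, Scap, Lbr, Vldlr and Lipa, and the values of Srebf2 between dcKO and cKO, were added after their values were seen. The members and lists were chosen with earlier results of these data known. Coordinates, exon lengths and GC content are from GENCODE M21 on GRCm38. Correlations and p-values across embryos rest on separate animals. 1 gene of the lists is not reported here.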

Additional observations from a re-analysis of the deposited data

How the results depend on the processing

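No member was called in cKO, dcKO or between them with TMM or RLE factors, DESeq2, limma voom, no filter, 6 embryos or the replicate block, and none without any single embryo except as follows. With GC-corrected offsets 1 member, Idi1 at -1.06, was called in cKO. Leaving out 1 embryo gave 0 to 1 members called between dcKO and cKO, the 1 being Idi1 at 1.37 without dcKO replicate 3. The median log2 fold change in cKO was -0.45 to -0.25 with an embryo left out, and -0.64 and -0.17 in the 2 pairs of embryos whose label codes share a number. In dcKO it was 0.031 to 0.31 with an embryo left out, the lowest without dcKO replicate 2, -0.042 with GC-corrected offsets and -0.10 in the pair that shares a code number. Between dcKO and cKO it was 0.39 to 0.69, the lowest without dcKO replicate 2.

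Directions turned in dcKO against Ctrl for Hmgcs1 (-0.11), Idi1 (-0.32) and Sc5d (-0.0031) with GC-corrected offsets, and for Idi1 with limma voom (-0.029). With an embryo left out Idi1 ranged from -0.41 to 0.58, Dhcr7 from -0.52 to 0.018 and Sqle from -0.32 to 0.092 there, with Sqle at 0.032 without dcKO replicate 1. Between dcKO and cKO Dhcr7 turned with limma voom (-0.10) and ranged from -0.29 to 0.25 with an embryo left out, at -0.026 without cKO replicate 3, and Fdft1 from -0.044 to 0.16. The causes were not tested. Of single-gene values, 321 kept their direction and side of the call, 2 passed the call and 13 turned.

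Embryos with the same replicate number did not deviate together on average (mean correlation 0.03 in cKO and Ctrl, -0.36 in dcKO and Ctrl, -0.18 in dcKO and cKO). Each mean is over 3 pairs, from -0.10 to 0.13 in cKO and Ctrl, too few to tell whether replicate numbers pair embryos. The code numbers that some embryos share were not tested in this way. With the replicate number as a block, 0 members were called in each comparison and Dhcr7 between dcKO and cKO was at -0.011. Each member had at least 1119 reads in every embryo.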
